A study of Mus musculus with 12 samples.

Results

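The enzymes and regulators of cholesterol and unsaturated fatty acid synthesis were followed in immortalized mouse bone marrow mesenchymal stem/stromal cells (MSCs) with and without p38α, untreated or treated with TGF-β. The set was a list of 37 genes put together by pathway, with earlier results of these data known. Of these, 31 had a probeset annotated to their own symbol alone and were measured, among 17097 genes read in the same way. Acat2, Pmvk, Srebf1, Abca1, Nr1h2 and Scd2 were not analysed here. By role, the measured genes comprised 5 of the mevalonate pathway, 10 of the path from squalene to cholesterol, 4 that control the sterol response, 2 of sterol transport and efflux, 5 of fatty acid supply and 5 desaturases and elongases.

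All cells, WT included, carried Mapk14 lox/lox, in which loxP sites flank part of Mapk14, the gene for p38α, so that Cre recombination can delete it. The groups were TGF-β-treated p38α∆ MSCs (arrays 1, 2 and 4), p38α∆ MSCs (arrays 1 and 3), TGF-β-treated WT MSCs (arrays 1, 3 and 4) and WT MSCs (arrays 1, 3, 4 and 4b). p38α∆ cells had received 4-hydroxytamoxifen and WT cells its vehicle, so effects of the drug and of the deletion cannot be told apart. Cells were kept in 0.5% serum and TGF-β was given at 5 ng/mL for 20 h. The sources used here do not say whether the arrays of a group come from separate cultures, and p-values therefore measure the spread between these arrays only. The MSCs are immortalized cells, and neither the number of donor mice nor clonality was given in the sources used here.

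Cholesterol is built from acetyl-CoA through the mevalonate pathway to squalene, which is closed to lanosterol and trimmed in a chain of reactions ending with cholesterol. When membrane sterol falls, SCAP escorts the SREBP transcription factors out of the endoplasmic reticulum, and the cleaved factors switch on most of these enzymes. INSIG proteins hold SCAP back when sterol is plentiful. SREBPs also drive the enzymes that make palmitate from acetyl-CoA and those that lengthen and desaturate it, which set the fluidity of the membrane.

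Signal levels are log2 values after robust multi-array averaging (RMA), and differences between groups are log2 fold changes. Each gene was read from the probeset with the highest mean over the 12 arrays. Group differences were tested with limma in a single fit of all 4 groups in which arrays bearing the same number in their titles were allowed to be correlated, with Benjamini-Hochberg adjustment over 17097 genes and a threshold of 0.05 on the adjusted p. Because the fit weights arrays within a number, a fitted fold change can differ from the plain difference of the group means. The mean level of 11 MSC markers lay between 7.38 and 7.60 in every array, while the mean over 8 endothelial markers lay between 3.42 and 3.72 and that over 7 leukocyte markers between 3.47 and 3.68. Pdgfra, a growth factor receptor among the MSC markers, fell with TGF-β in p38α∆ MSCs (log2 fold change -0.78 ± 0.18, adjusted p = 0.0188) and was estimated at -0.21 ± 0.14 in WT MSCs (adjusted p = 0.442). Nt5e, the surface nucleotidase CD73 of the same list, rose in WT MSCs (0.49 ± 0.11, adjusted p = 0.0125) and was estimated at 0.41 ± 0.14 in p38α∆ MSCs (adjusted p = 0.106). Their part in the results below was not tested. Of 9 adipocyte markers, which mark the lipid-storing fate of MSCs, 7 had mean levels between 3.06 for Cd36 and 4.34 for Retn, under the median of 5.11 over all genes, with Adipoq at 3.15. The transcription factor genes Pparg and Cebpa were above it at 5.54 and 7.57. None of the 9 passed in a comparison. Thy1 and Eng (CD105), also listed as MSC markers, were under that median too, at 3.38 and 4.60. None of the 6 Mapk14 probesets was lower in all arrays of the p38α∆ groups than in the WT groups. Their place relative to the deleted part of the gene was not given in the sources used here, so they check nothing about the deletion. In bulk RNA a change in the share of a cell type and a change per cell cannot be told apart.

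Promoter sequence was at hand for 24 of the 31 genes, as 30 windows in RefSeq (build GRCm38.p6), each running from 250 bases before a transcription start to 50 bases after it. There was none for Abcg1, Fdft1, Sqle and Stard4, nor for Scd1, Fdps and Fads1, which fell with TGF-β in p38α∆ MSCs (below). Both strands were searched for the sterol element TCACNCCAC, the NF-Y box CCAAT, the GC box GGGCGG of Sp1 and the E-box CACGTG, none of which contains another. The sterol element in these letters was found in 1 of the 24 genes, Hmgcs1, against 1.44% of all genes with a window (1.24% of all 32851 windows). A CCAAT box was found in 20 of the 30 windows (66.7%), against 37.4% of all windows, and at least 2 of them in 12 windows (40%), against 11.7%. A GC box was found in 20 of the 24 genes (83.3%), against 38.2% of all genes with a window, and an E-box in 6 (25%), against 8.09%. The promoters shown here are those of Mvk and Dhcr7, the 2 genes that fell with TGF-β in both genotypes, and of Hmgcs1, the carrier of the sterol element, and they were picked after the values were seen. For Dhcr7 the window with the most CCAAT boxes among its 3 was taken, and its other windows held none. Capitals mark CCAAT, which reads ATTGG on the opposite strand, and in Hmgcs1 also the sterol element, whose first base lies at -137 from the start.
Mvk, chr5:114444019-114444318, plus strand: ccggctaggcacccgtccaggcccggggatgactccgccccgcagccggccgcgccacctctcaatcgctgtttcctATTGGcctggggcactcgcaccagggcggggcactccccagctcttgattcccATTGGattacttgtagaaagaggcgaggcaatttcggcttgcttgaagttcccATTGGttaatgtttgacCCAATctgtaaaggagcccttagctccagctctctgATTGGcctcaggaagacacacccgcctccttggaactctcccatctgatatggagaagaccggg
Dhcr7, chr7:143829964-143830263, plus strand: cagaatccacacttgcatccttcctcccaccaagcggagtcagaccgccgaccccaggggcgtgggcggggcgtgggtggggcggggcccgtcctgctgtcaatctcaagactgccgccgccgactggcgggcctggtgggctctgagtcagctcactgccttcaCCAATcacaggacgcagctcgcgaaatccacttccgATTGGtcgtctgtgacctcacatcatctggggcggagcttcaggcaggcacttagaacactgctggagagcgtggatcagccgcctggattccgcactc
Hmgcs1, chr13:119690101-119690400, plus strand: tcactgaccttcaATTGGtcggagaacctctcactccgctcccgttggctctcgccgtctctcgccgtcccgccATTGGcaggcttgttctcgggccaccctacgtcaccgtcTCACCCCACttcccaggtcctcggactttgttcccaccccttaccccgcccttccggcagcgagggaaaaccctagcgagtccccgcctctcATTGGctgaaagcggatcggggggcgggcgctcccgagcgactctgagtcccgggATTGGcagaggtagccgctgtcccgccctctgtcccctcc
The Mvk window held 5 CCAAT boxes, a number reached or passed by 0.271% of all windows. The Dhcr7 window held 2 and the Hmgcs1 window 4. Such matches describe the letters of these windows and were not measured as bound sites.

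In p38α∆ MSCs, TGF-β lowered 7 of the 31 genes and raised none (limma, adjusted p under 0.05), against 4.97% of all genes lower and 3.43% higher. Those that fell were Scd1, Fads1, Fads2 and Elovl6 of the desaturases and elongases, Mvk and Fdps of the mevalonate pathway and Dhcr7 of the late sterol path. The estimate was below 0 for 25 of the 31 genes with a median of -0.27, against 50.8% below 0 and a median of 0.00 over all genes. By role, 4 of 5 desaturases and elongases passed, 2 of 5 mevalonate genes and 1 of 10 in the squalene to cholesterol path, while none of the genes of sterol control, sterol transport or fatty acid supply did. Arrays of both groups did not overlap for 13 of the 31 genes, with 12 lower under TGF-β and Me1 alone above, against 21.9% of all genes not overlapping in either direction. Without the arrays numbered 1, which leaves 1 untreated p38α∆ array, the median of the 31 genes was -0.10 with 22 below 0. It was -0.09 without TGF-β-treated p38α∆ array 1, again with 22 below 0, and -0.29 without array 2 of that group.

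**Figure D1:**
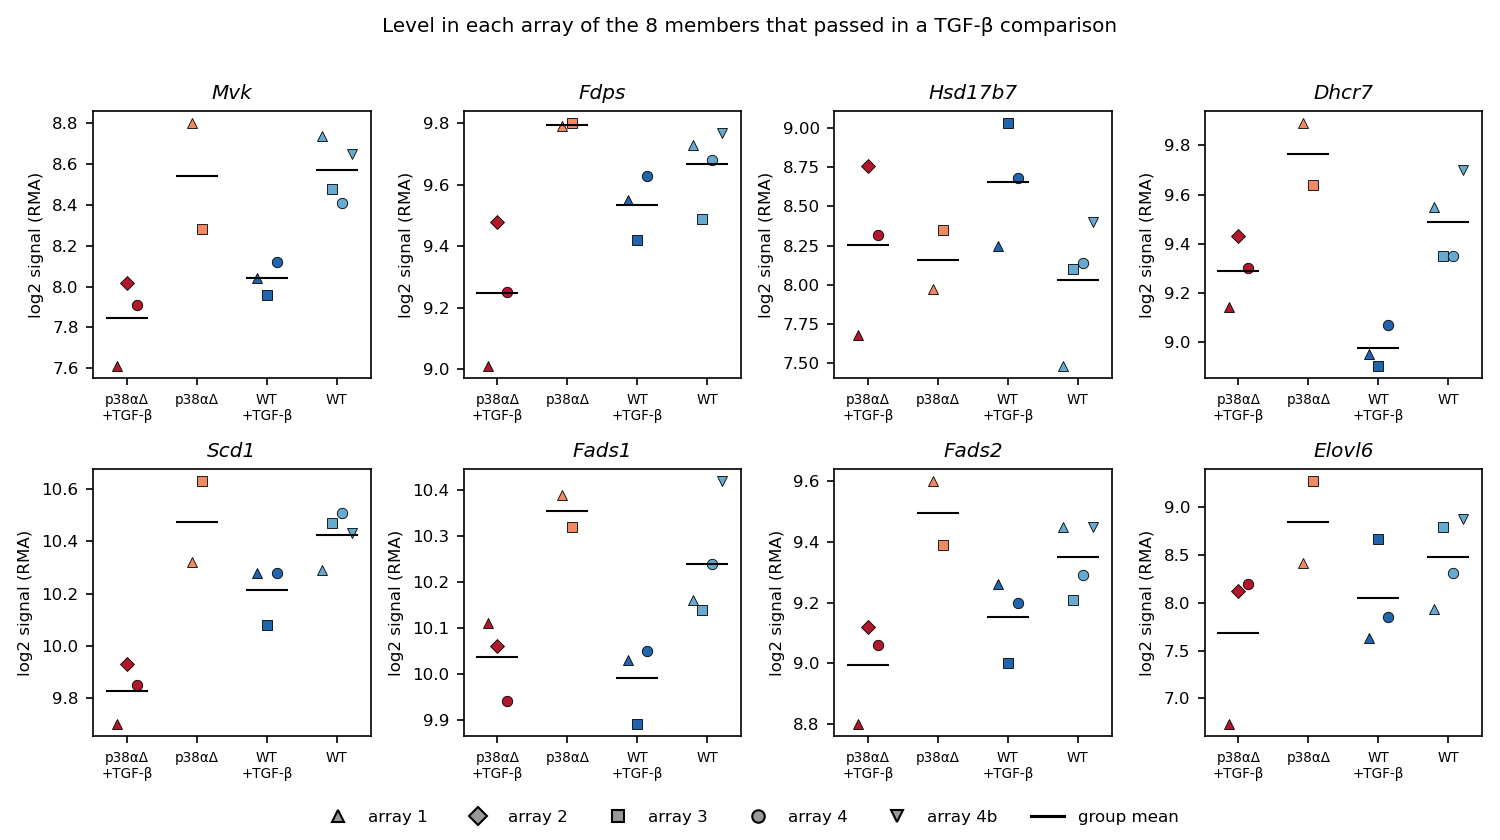
Log2 RMA signal (vertical axis) in each of the 12 arrays for the 8 genes that passed in a TGF-β comparison, by group (horizontal axis), with marker shapes giving the array number and black lines the group means. Scd1 lies between 9.70 and 9.93 in TGF-β-treated p38α∆ MSCs and at 10.08 or above in every other array, while Dhcr7 is lowest in TGF-β-treated WT MSCs.

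SCD1 places the first double bond into saturated fatty acyl-CoA and is the step that makes oleate. Scd1 had 9.70, 9.93 and 9.85 in TGF-β-treated p38α∆ MSCs, against 10.32 and 10.63 in p38α∆ MSCs. All 3 treated arrays lay under both untreated ones, and the fall was 1.61-fold (log2 fold change -0.69 ± 0.11 SE, adjusted p = 0.00254). FADS1 and FADS2 are the front-end desaturases that turn dietary linoleate and linolenate into long polyunsaturated fatty acids. Fads2 had 8.80, 9.12 and 9.06 in TGF-β-treated p38α∆ MSCs, against 9.60 and 9.39 in p38α∆ MSCs. It fell 1.51-fold without overlap (log2 fold change -0.59 ± 0.11, adjusted p = 0.00615). Fads1 had 10.11, 10.06 and 9.94 in TGF-β-treated p38α∆ MSCs, against 10.39 and 10.32 in p38α∆ MSCs. Its groups were also apart, by the smaller 1.28-fold (log2 fold change -0.36 ± 0.10, adjusted p = 0.0413). ELOVL6 lengthens palmitate to stearate. Elovl6 had 6.73, 8.12 and 8.20 in TGF-β-treated p38α∆ MSCs, against 8.42 and 9.27 in p38α∆ MSCs. Its estimate was the largest of the 31 at 2.28-fold lower, with the widest error among the 7 (log2 fold change -1.19 ± 0.33, adjusted p = 0.0431), and array 1 was the lowest of its group on both sides. Elovl5, which lengthens polyunsaturated chains, had a log2 fold change of -0.18 ± 0.09 that did not pass (adjusted p = 0.317).

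Mevalonate kinase, encoded by Mvk, phosphorylates mevalonate, and FDPS joins isoprenoid units into farnesyl diphosphate, from which sterols and protein prenyl groups are both made. Mvk had 7.61, 8.02 and 7.91 in TGF-β-treated p38α∆ MSCs, against 8.80 and 8.28 in p38α∆ MSCs. It fell 1.74-fold (log2 fold change -0.80 ± 0.16, adjusted p = 0.00751). Fdps had 9.01, 9.48 and 9.25 in TGF-β-treated p38α∆ MSCs, against 9.79 and 9.80 in p38α∆ MSCs. It fell 1.58-fold (log2 fold change -0.66 ± 0.12, adjusted p = 0.00358), the treated arrays spreading over a wider range than the untreated pair. Mvd, which decarboxylates mevalonate diphosphate, had an estimate of -0.47 ± 0.15 that missed the threshold (adjusted p = 0.0817). Idi1, the isomerase of the isoprenoid units, was estimated at -0.33 ± 0.39 (adjusted p = 0.721), and its arrays numbered 1 were low in both groups, at 7.12 in TGF-β-treated p38α∆ MSCs and 7.83 in p38α∆ MSCs. The Hmgcs1 probeset was dim, with a mean level of 3.67 over the 12 arrays, and its estimate was -0.04 ± 0.16.

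DHCR7 reduces 7-dehydrocholesterol to cholesterol, the last step of one branch of the path. Dhcr7 had 9.14, 9.43 and 9.30 in TGF-β-treated p38α∆ MSCs, against 9.89 and 9.64 in p38α∆ MSCs. All treated arrays lay below the untreated pair, and the fall was 1.48-fold (log2 fold change -0.57 ± 0.12, adjusted p = 0.0132). The other 9 genes between squalene and cholesterol ran from -0.37 ± 0.30 for Sc5d, the lathosterol desaturase, up to 0.11 ± 0.11 for Cyp51, the lanosterol demethylase, and none passed. Nsdhl, a dehydrogenase of the demethylation steps, lay below the untreated arrays in all 3 treated arrays, with an estimate of -0.34 ± 0.11 (adjusted p = 0.0819). The 4 regulators gave no call, Srebf2 being estimated at -0.20 ± 0.12, Scap at -0.06 ± 0.11, Insig1 at -0.06 ± 0.24 and Insig2 at -0.48 ± 0.32. Among the genes that supply fatty acid synthesis, Acss2, which makes acetyl-CoA from acetate, was estimated at -0.72 ± 0.22 (adjusted p = 0.0617). Acaca, the carboxylase that commits acetyl-CoA to fatty acids, was estimated at -0.27 ± 0.08 (adjusted p = 0.0629) and Acly, the citrate lyase, at -0.35 ± 0.12 (adjusted p = 0.0977). Fasn, the fatty acid synthase, was estimated at -0.05 ± 0.14 (adjusted p = 0.905). Malic enzyme Me1, a source of NADPH, was estimated at 0.19 ± 0.09 (adjusted p = 0.243). The sterol carrier Stard4 and the efflux pump gene Abcg1 were at -0.19 ± 0.27 and 0.10 ± 0.13.

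These 7 calls rest on 2 untreated p38α∆ arrays, and only array number 1 was present on both sides. With the 4 arrays numbered 1 left out, or p38α∆ array 1 alone, 1 untreated p38α∆ array remains. Its spread is then taken from the other groups. With the arrays treated as unrelated, only Scd1 of the 7 passed. In a fit of the 5 arrays of both groups alone, none of the 7 passed. No called gene changed sign in any of these, but some falls were smaller. Without the arrays numbered 1, Mvk was estimated at -0.33 ± 0.13, Fads2 at -0.33 ± 0.13 and Dhcr7 at -0.30 ± 0.17, while Scd1 was at -0.76 ± 0.11. Without p38α∆ array 1, Mvk was at -0.53 ± 0.18. Dhcr7 also missed the threshold without TGF-β-treated p38α∆ array 1 (adjusted p = 0.084). Elovl6 was estimated at -0.69 ± 0.29 without that array (adjusted p = 0.258). Its call was also lost without any one of TGF-β-treated WT array 1 and WT arrays 3 and 4b. With p38α∆ array 1 or 3 left out, which leaves 1 untreated p38α∆ array, Elovl6 was at -1.23 ± 0.47 and -1.15 ± 0.43. Fads1 kept its call only where the array left out was TGF-β-treated p38α∆ array 1, WT array 1 or WT array 4b. Fads1 and Elovl6 also missed the threshold when each array was centred on its median (adjusted p = 0.0691 and 0.0559).

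**Figure D2:**
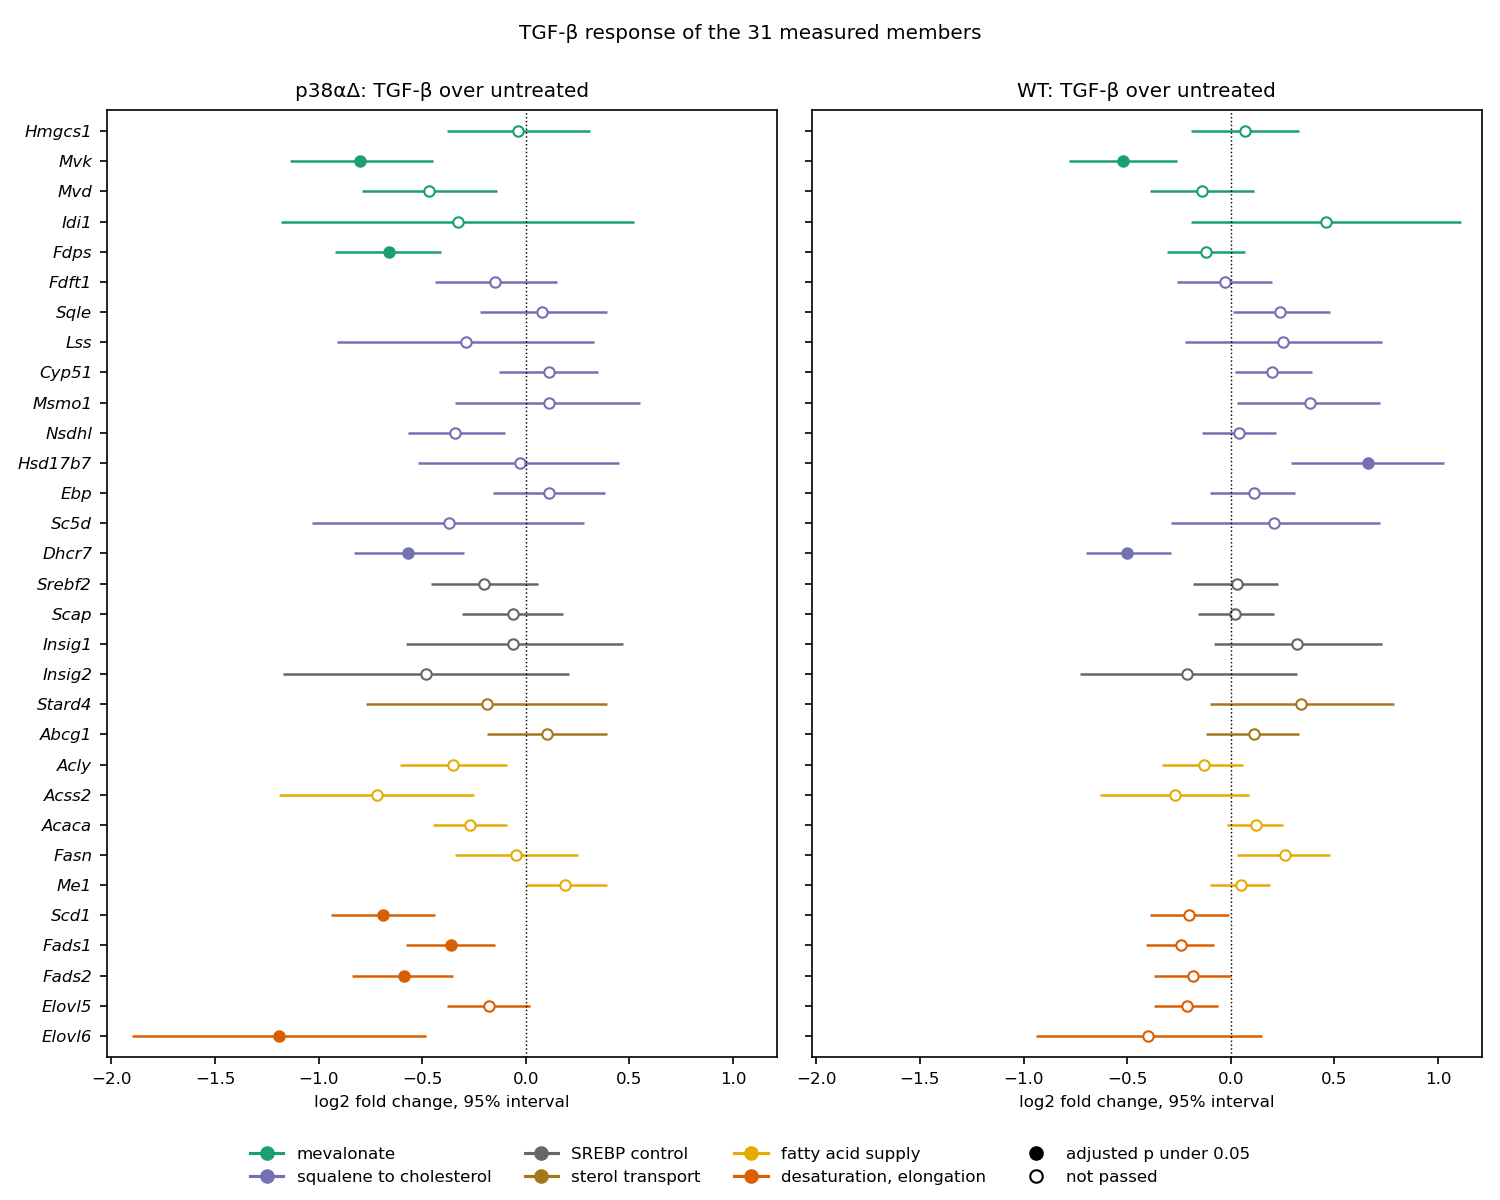
Log2 fold change with its 95% interval (horizontal axis) of each of the 31 genes (vertical axis, coloured by role) for TGF-β-treated over untreated cells, p38α∆ MSCs on the left and WT MSCs on the right, with filled points for adjusted p under 0.05. The 5 desaturases and elongases lie below 0 in both panels, and the sterol path genes from Sqle to Hsd17b7 lie at or above 0.04 in WT.

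In WT MSCs, TGF-β lowered Mvk and Dhcr7 and raised Hsd17b7 and left the remaining 28 of the 31 genes short of the threshold (limma), against 5.36% of all genes lower and 4.02% higher. At an unadjusted p under 0.05 there were 10 of the 31, against 3597 of all 17097 genes. Estimates were below 0 for 13 genes with a median of 0.04, against 52.9% below 0 and a median of -0.01 over all genes. No gene was above without overlap and 6 were below, against 13.4% of all genes not overlapping in either direction. Mvk had 8.04, 7.96 and 8.12 in TGF-β-treated WT MSCs, against 8.74, 8.48, 8.41 and 8.65 in WT MSCs. The groups were apart, and the fall was 1.43-fold (log2 fold change -0.52 ± 0.12 SE, adjusted p = 0.0166). Dhcr7 had 8.95, 8.90 and 9.07 in TGF-β-treated WT MSCs, against 9.55, 9.35, 9.35 and 9.70 in WT MSCs. It fell 1.41-fold with no overlap (log2 fold change -0.50 ± 0.09, adjusted p = 0.00544). HSD17B7 is the keto-reductase that removes the sterol carbonyl left by demethylation. Hsd17b7 had 8.25, 9.03 and 8.68 in TGF-β-treated WT MSCs, against 7.48, 8.10, 8.14 and 8.40 in WT MSCs. The groups overlapped, since treated array 1 lay under untreated array 4b, although within each of the numbers 1, 3 and 4 the treated array was higher than the mean of the untreated ones (log2 fold change 0.66 ± 0.17, adjusted p = 0.0294).

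Along the path from squalene to cholesterol the WT estimates had both signs. Next to the fall of Dhcr7 at its end, 8 of the 10 estimates lay above 0. Sqle, the squalene epoxidase, was estimated at 0.24 ± 0.11, Cyp51 at 0.20 ± 0.08 and Msmo1, the methylsterol monooxygenase, at 0.38 ± 0.16, and none of these passed (adjusted p = 0.217, 0.187 and 0.188). Insig1, a target of SREBPs as well as their brake, was estimated at 0.32 ± 0.19 (adjusted p = 0.371). Without untreated WT array 4b, these values became 0.34 ± 0.08 for Sqle, 0.52 ± 0.11 for Msmo1 and 0.50 ± 0.13 for Insig1, and all 3 passed (adjusted p = 0.0294, 0.0159 and 0.032), while Hsd17b7 stayed called. The mevalonate genes other than Mvk ranged from -0.14 ± 0.11 for Mvd to 0.46 ± 0.30 for Idi1. Fasn was estimated at 0.26 ± 0.10 (adjusted p = 0.172) and Acss2 at -0.27 ± 0.16 (adjusted p = 0.402), the extremes of fatty acid supply.

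All 5 desaturases and elongases had estimates below 0 in WT MSCs, and none passed. Fads1 had 10.03, 9.89 and 10.05 in TGF-β-treated WT MSCs, against 10.16, 10.14, 10.24 and 10.42 in WT MSCs. Its arrays did not overlap (log2 fold change -0.24 ± 0.08, adjusted p = 0.0705). Scd1 had 10.28, 10.08 and 10.28 in TGF-β-treated WT MSCs, against 10.29, 10.47, 10.51 and 10.43 in WT MSCs. The highest treated and the lowest untreated array lay next to each other (log2 fold change -0.20 ± 0.09, adjusted p = 0.199). Fads2 had 9.26, 9.00 and 9.20 in TGF-β-treated WT MSCs, against 9.45, 9.21, 9.29 and 9.45 in WT MSCs. These overlapped (log2 fold change -0.18 ± 0.09, adjusted p = 0.25). Elovl6 had 7.63, 8.67 and 7.85 in TGF-β-treated WT MSCs, against 7.93, 8.79, 8.31 and 8.88 in WT MSCs, with wide overlap (log2 fold change -0.40 ± 0.25, adjusted p = 0.429). Elovl5 was estimated at -0.21 ± 0.07 (adjusted p = 0.0865), close to its estimate in p38α∆ cells. Fdps had 9.55, 9.42 and 9.63 in TGF-β-treated WT MSCs, against 9.73, 9.49, 9.68 and 9.77 in WT MSCs, and these too overlapped (log2 fold change -0.12 ± 0.09, adjusted p = 0.518). In p38α∆ MSCs Hsd17b7, with 7.68, 8.76 and 8.32 in treated and 7.97 and 8.35 in untreated arrays, was estimated at -0.03 ± 0.22 (adjusted p = 0.968).

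The call for Hsd17b7 was lost when any single array of WT MSCs other than 4b, or any single array of TGF-β-treated WT MSCs, was left out, and the estimate then lay between 0.53 and 0.76. Mvk missed the threshold without WT array 1 or 3 or any single TGF-β-treated WT array (adjusted p between 0.0573 and 0.086), and Dhcr7 passed each time. Without all 4 arrays numbered 1, Dhcr7 was at -0.47 ± 0.12 and just missed it (adjusted p = 0.0504).

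Whether the response to TGF-β differed between p38α∆ and WT MSCs was tested as the difference of both fold changes. No gene of the 31 passed, and 0% of all genes did (limma, 6 of the 31 and 920 of all genes at an unadjusted p under 0.05). The estimate was below 0 for 28 of the 31 genes, with a median of -0.28, against 50% of all genes and a median of 0.00. Falls seen in p38α∆ MSCs and not called in WT MSCs are thus not shown to differ between genotypes. The smallest p belonged to Acaca, at -0.39 ± 0.10 (95% interval -0.62 to -0.16, adjusted p = 0.659 by limma). Fdps followed at -0.55 ± 0.15 (interval -0.87 to -0.22, adjusted p = 0.659) and Scd1 at -0.49 ± 0.14 (interval -0.80 to -0.17, adjusted p = 0.781). For Dhcr7 the interval ran from -0.41 to 0.27 around -0.07, and for Mvk from -0.71 to 0.16 around -0.28. Without the arrays numbered 1 the median over the 31 genes was -0.14, with 23 below 0.

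With TGF-β, no gene of the set passed between p38α∆ and WT MSCs, against 0.368% of all genes higher and 0.0819% lower (limma). At an unadjusted p under 0.05 there were 8 of the 31, against 1471 of all 17097 genes. Of the 31 estimates, 20 lay below 0 with a median of -0.13, against 51.8% below 0 and a median of -0.01 over all genes. Nsdhl, Acly, Acaca and Scd1 were lower in every treated p38α∆ array than in any treated WT array and Dhcr7 was higher in every one, against 8.71% of all genes not overlapping in either direction. Scd1 was estimated at -0.40 ± 0.10 (adjusted p = 0.132). Acaca had 8.23, 8.36 and 8.34 in TGF-β-treated p38α∆ MSCs, against 8.64, 8.51 and 8.62 in TGF-β-treated WT MSCs. No array crossed over. The log2 fold change was -0.31 ± 0.07 with the smallest adjusted p of the set (0.102). Nsdhl had 8.77, 9.20 and 9.09 in TGF-β-treated p38α∆ MSCs, against 9.38, 9.38 and 9.33 in TGF-β-treated WT MSCs. The treated WT arrays lay closer together than the treated p38α∆ arrays (log2 fold change -0.38 ± 0.09, adjusted p = 0.133). Dhcr7 was estimated at 0.25 ± 0.11 (adjusted p = 0.532). Its level fell in both genotypes and was higher in p38α∆ arrays on average before and after treatment, without passing in either comparison. Without the arrays numbered 1, the median over the 31 genes was 0.00 and 15 were below 0.

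Untreated p38α∆ and WT MSCs gave no call, in the set or among all genes (0% of all genes, limma), with 4 of the 31 and 841 of all genes at an unadjusted p under 0.05. The estimate was above 0 for 25 of the 31 genes and below 0 for 6, with a median of 0.17, against 50.9% of all genes below 0 and a median of 0.00. Fdps and Cyp51 were above without overlap and none below, against 6.52% of all genes not overlapping. The 4 genes were Insig1, Dhcr7, Stard4 and Msmo1. Insig1 had 9.51 and 9.97 in p38α∆ MSCs and 8.58, 9.13, 9.05 and 9.76 in WT MSCs. One of the WT arrays, 4b, reached into the p38α∆ range, and the estimate was 0.70 ± 0.22 (adjusted p = 0.982). Without array 4b it was 0.84 ± 0.14 (adjusted p = 0.231). Stard4, Msmo1 and Dhcr7 were estimated at 0.58 ± 0.24, 0.42 ± 0.19 and 0.32 ± 0.11 (adjusted p = 0.982 each).

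**Figure D3:**
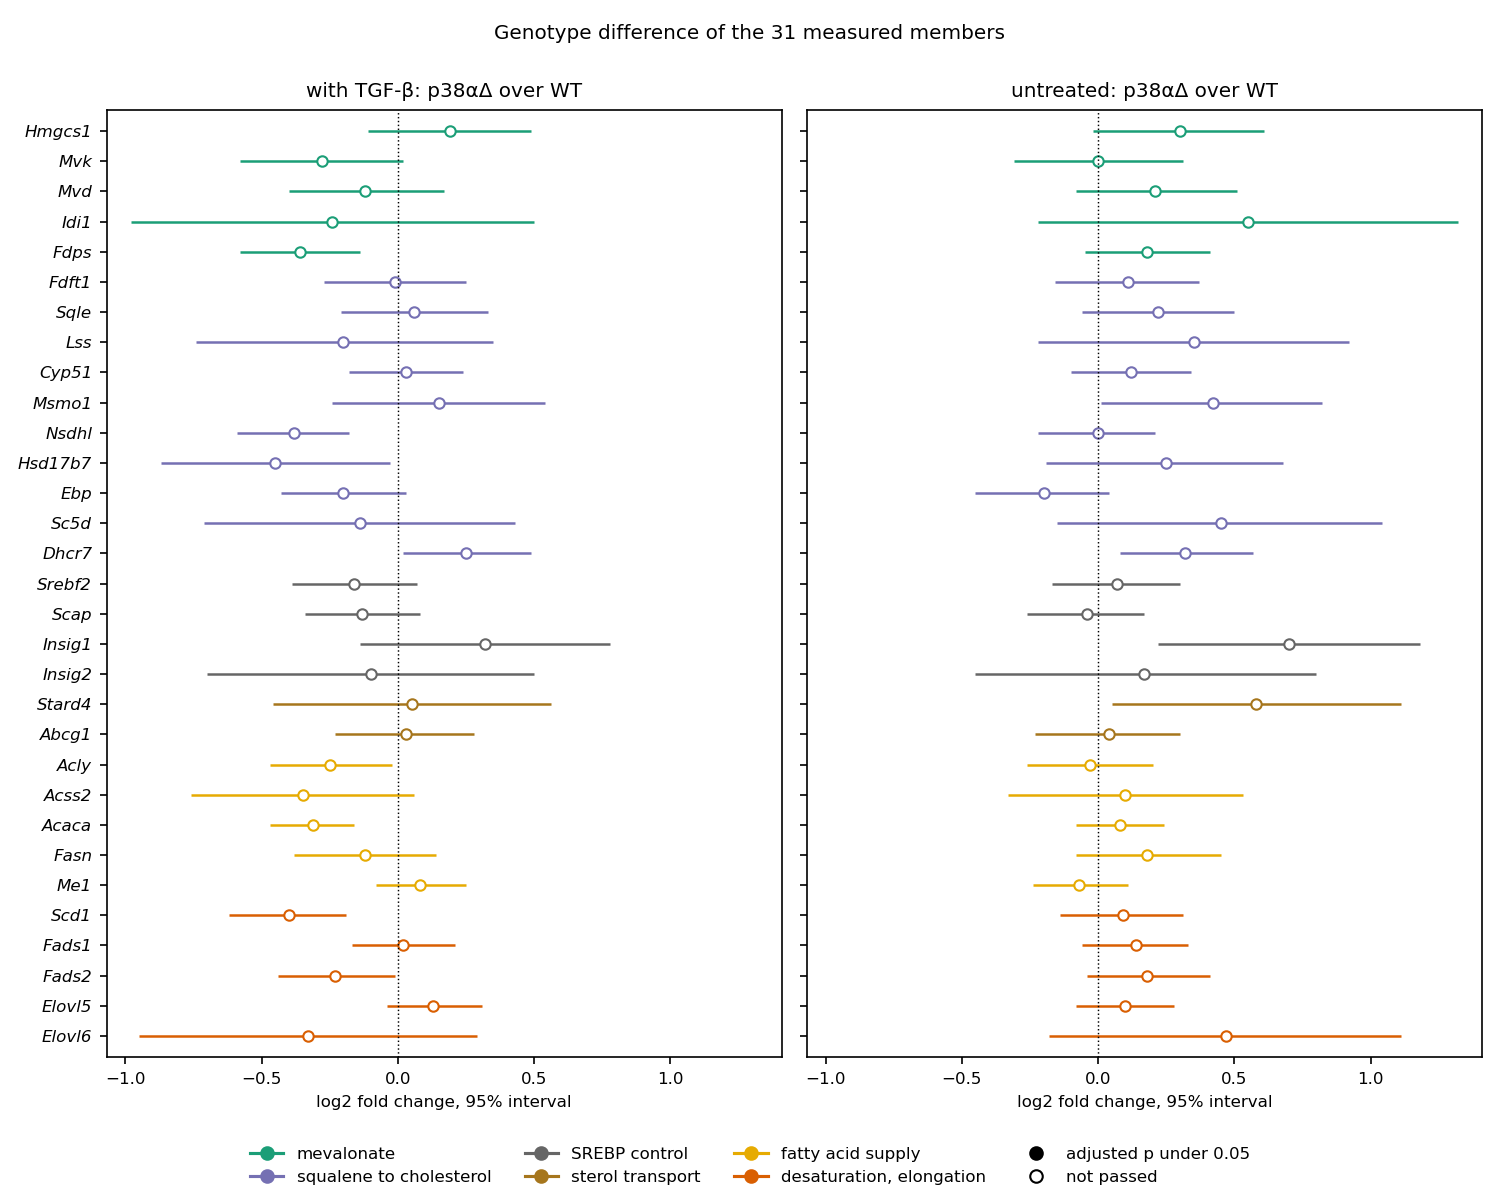
Log2 fold change of p38α∆ over WT MSCs with its 95% interval (horizontal axis) for each of the 31 genes (vertical axis, coloured by role), with TGF-β on the left and untreated on the right. No point is filled, since no gene reached an adjusted p under 0.05, and 20 estimates lie below 0 with TGF-β and 6 without.

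Part of the spread behind these intervals was shared between members. Arrays numbered 1 stood apart from the rest of their groups in 12 of the 31 genes, which were lowest in array 1 in all 4 groups, against 17.8% of all genes. Averaged over the groups, array 1 was lower by 1.26 for Insig2, by 1.21 for Idi1, by 1.02 for Sc5d, by 0.91 for Elovl6, by 0.85 for Lss and Stard4 and by 0.82 for Acss2. These 7 lay below the 5th percentile of all genes (-0.76), and none of the 31 lay above the 95th. By contrast, Mvk, Dhcr7, Fads1 and Fads2 differed by 0.10, 0.02, 0.03 and 0.06, and Fdps and Scd1 by -0.06 and -0.15. These are means over groups that can differ in sign, since array 1 of Mvk, Dhcr7 and Fads2 was the lowest of TGF-β-treated p38α∆ MSCs and the higher of p38α∆ MSCs, and the falls of these 3 genes shrank without the arrays numbered 1. Within number 1 the median TGF-β difference of the 31 genes was -0.43 in p38α∆ MSCs, against -0.02 over all genes. In WT MSCs it was 0.00, -0.02 and 0.01 within numbers 1, 3 and 4.

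**Figure D4:**
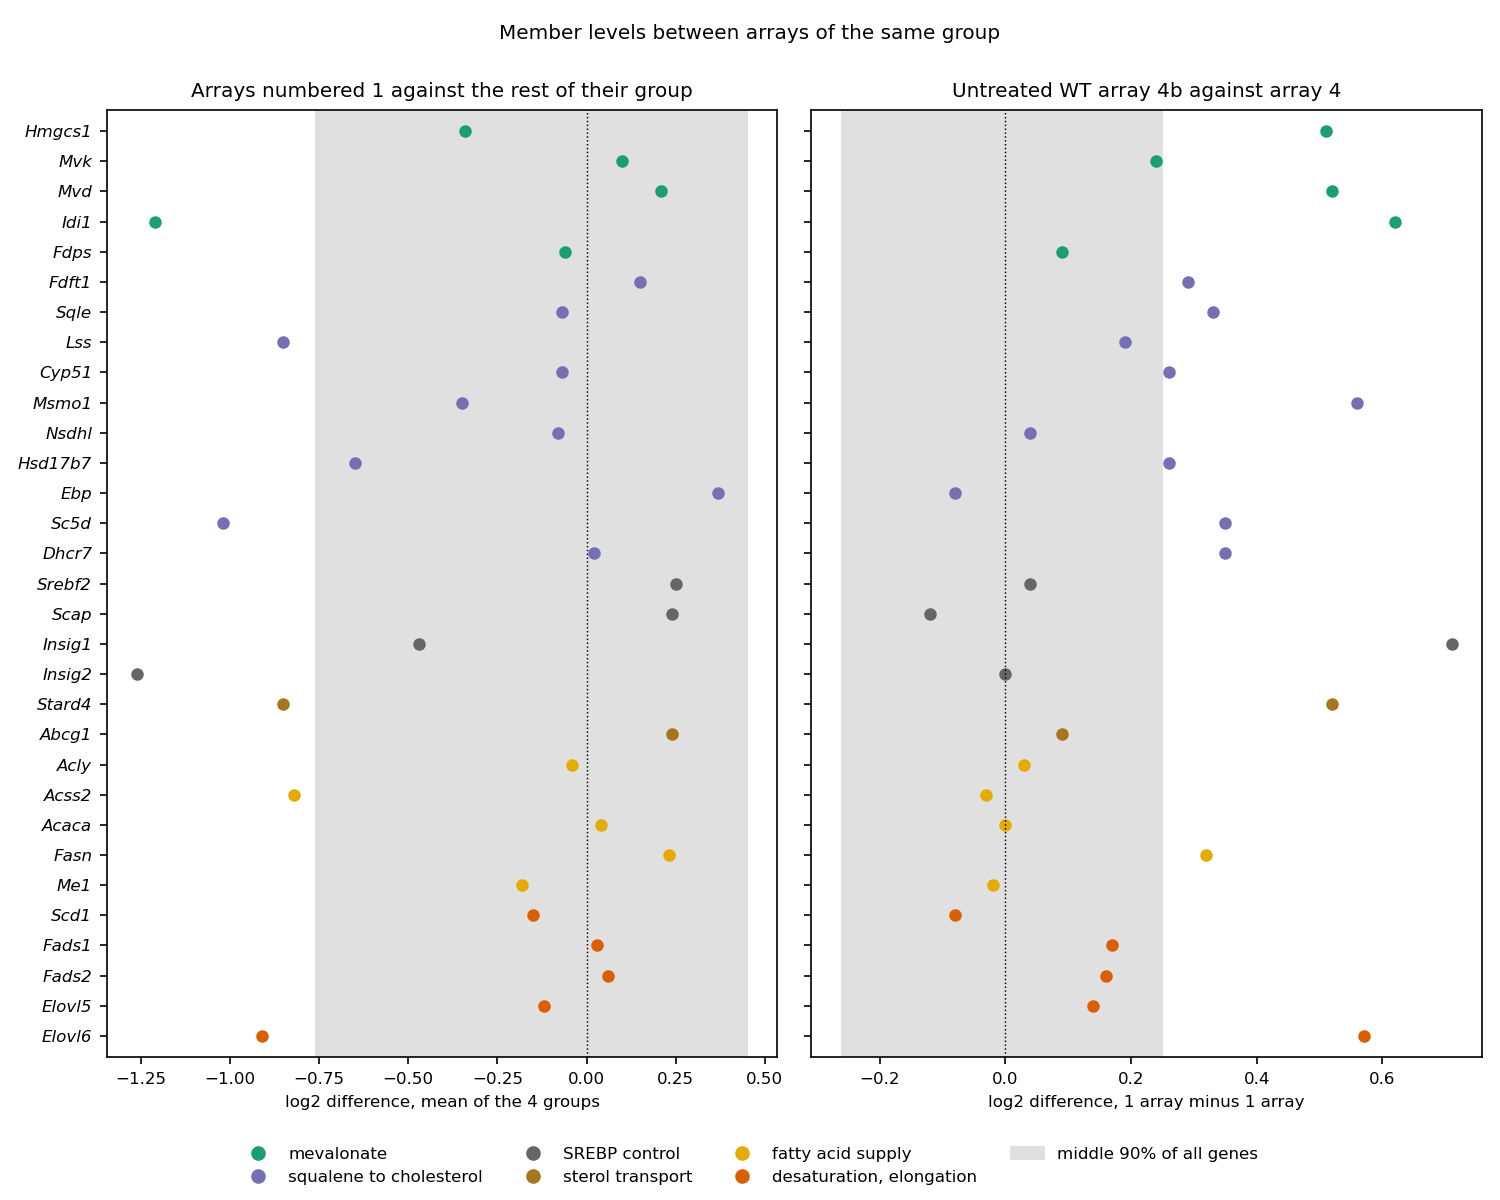
Log2 difference (horizontal axis) of each of the 31 genes (vertical axis, coloured by role) between arrays of the same group, for arrays numbered 1 minus the others on the left (mean of the 4 groups) and for untreated WT array 4b minus array 4 on the right, with the middle 90% of all genes shaded. On the right, 14 genes lie above the shaded range, led by Insig1 at 0.71, and none below.

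Arrays 4b and 4 of untreated WT MSCs differed about as little as any pair in that group over all genes (SD of the difference 0.16, against 0.15 and 0.17 for array 3 with 4 and with 4b, and 0.41 to 0.42 for the pairs with array 1). Many of the 31 genes were an exception, which was looked at after their values were seen. Insig1 was higher in array 4b by 0.71, Idi1 by 0.62, Elovl6 by 0.57, Msmo1 by 0.56, Mvd and Stard4 by 0.52 and Hmgcs1 by 0.51, all at or above the 99.6th percentile of all genes. Of the 31 genes, 14 lay above the 95th percentile of 0.25 and none under the 5th of -0.26. All 5 mevalonate genes and 9 of the 10 between squalene and cholesterol were higher in 4b, with medians of 0.51 and 0.28, 4 of 5 desaturases and elongases were higher with a median of 0.16, and fatty acid supply had 2 of 5 higher and a median of 0.00. Srebf2, Scap and Insig2 differed by 0.04, -0.12 and 0.00. This is a difference between 2 arrays of one group and has no replicate. Counting both arrays as 1 by averaging them, an alternative added after the values were seen, kept all 7 calls in p38α∆ MSCs and added Mvd, and kept Mvk, Dhcr7 and Hsd17b7 in WT MSCs.

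Other genes of these pathways were read from 2 further lists. Of 23 sterol genes outside the set, Lpin1 and Tm7sf2 fell and none rose with TGF-β in p38α∆ MSCs, and Lbr rose and none fell in WT MSCs. Over all genes, 4.97% were lower and 3.43% higher in p38α∆ MSCs, and 5.36% lower and 4.02% higher in WT MSCs. With so few genes, the counts are not set apart from these shares. LPIN1 turns phosphatidic acid into diacylglycerol and also restrains SREBP in the nucleus. Lpin1 ranged from 4.30 to 5.34 in TGF-β-treated p38α∆ MSCs, from 6.36 to 6.52 in p38α∆ MSCs, from 4.76 to 5.31 in TGF-β-treated WT MSCs and from 5.23 to 6.56 in WT MSCs. The groups were apart in p38α∆ cells only, with log2 fold changes of -1.79 ± 0.27 there (adjusted p = 0.00147) and -0.70 ± 0.20 in WT (adjusted p = 0.0534), and the difference of both did not pass (-1.09 ± 0.34, adjusted p = 0.822). TM7SF2 and LBR catalyse the same reduction of the sterol ring at carbon 14. Tm7sf2 was estimated at -0.72 ± 0.12 in p38α∆ MSCs (adjusted p = 0.00244) and at -0.25 ± 0.09 in WT MSCs (adjusted p = 0.113). Lbr, which also anchors the nuclear lamina, went the other way, at 0.42 ± 0.15 in p38α∆ MSCs (adjusted p = 0.117) and 0.59 ± 0.11 in WT MSCs (adjusted p = 0.00575).

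Of 25 further fatty acid and lipid genes, 1 rose and 2 fell in p38α∆ MSCs and 3 rose and 1 fell in WT MSCs. Such small counts are not set apart from the background of the 17097 genes. That background was 3.43% rising and 4.97% falling in p38α∆ MSCs, and 4.02% rising and 5.36% falling in WT MSCs. Mgll, the monoacylglycerol lipase, rose in both, by 0.74 ± 0.12 in p38α∆ MSCs (adjusted p = 0.00202) and 0.85 ± 0.09 in WT MSCs (adjusted p = 9.32e-05). Mid1ip1, an activator of acetyl-CoA carboxylase, fell in both, at -0.59 ± 0.14 in p38α∆ MSCs (adjusted p = 0.0224) and -0.42 ± 0.11 in WT MSCs (adjusted p = 0.0288). Lpcat3, which puts polyunsaturated chains into phospholipids, fell in p38α∆ MSCs (-0.50 ± 0.11, adjusted p = 0.0154) and was estimated at -0.11 ± 0.09 in WT MSCs (adjusted p = 0.556). Acsl4, which activates arachidonate, and Dgat2, which closes triglyceride synthesis, rose in WT MSCs by 1.54 ± 0.34 and 0.45 ± 0.12 (adjusted p = 0.0133 and 0.0355). In p38α∆ MSCs they were estimated at 1.34 ± 0.45 and 0.37 ± 0.16 (adjusted p = 0.0949 and 0.216). Neither list gave a call in the genotype comparisons or in the difference of responses.

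Of the 31 genes, 20 had more than 1 probeset, and the second probesets of the called genes were read as a check with p-values adjusted over all probesets. A further Scd1 probeset gave -0.69 ± 0.11 in p38α∆ MSCs (adjusted p = 0.00273), and a further Mvk probeset gave -0.63 ± 0.17 in p38α∆ MSCs (adjusted p = 0.0557) and -0.51 ± 0.13 in WT MSCs (adjusted p = 0.0412). For Fads2 the other probesets gave -0.53 ± 0.16 and -0.43 ± 0.19 in p38α∆ MSCs, for Elovl6 -1.01 ± 0.26 and -0.32 ± 0.22, and for Fads1 -0.68 ± 0.32, none of which passed. With this adjustment the main probesets of Fads1 and Elovl6 missed the threshold too (adjusted p = 0.0529 and 0.0726). So did the main probeset of Hsd17b7 in WT MSCs (adjusted p = 0.0507). The other Hsd17b7 probesets gave 0.47 ± 0.13 and 0.21 ± 0.12 in WT MSCs, also short of the threshold. A second Acss2 probeset gave -0.60 ± 0.14 in p38α∆ MSCs and passed (adjusted p = 0.032). The Elovl5 probeset is of a type that can bind related sequences.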

How the data were processed

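MSC RNA was amplified from small inputs by whole transcriptome amplification, labelled and hybridized to Affymetrix MG-430 PM arrays by the authors. The deposited values are log2 signals per probeset, which the authors background-corrected, normalized and summarized by RMA with the affy and affyPLM packages in R, with no array excluded. Arrays carry no counts, so the number of arrays limits the precision. One element of the cells' genotype is not reported here. The study's models held the scanning batch as a covariate. The labels used here do not give it, and the number in each array title was used as a random block instead (duplicateCorrelation, consensus correlation 0.49).

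From the deposited log2 values, 64 control probesets were left out of the table, leaving 45037. The platform annotation listed 29449 of these, of which 28898 had 1 gene symbol and 551 several, and 15588 were unlisted. One probeset per gene, the one with the highest mean, gave 17097 genes. No level filter was used. Fits used limma 3.58.1 in R 4.3.3 (lmFit, contrasts.fit, eBayes) with all 4 groups, and p-values were adjusted by Benjamini-Hochberg over all genes. The procedure was run on simulated data in which every array number had the same correlation. The measured arrays differ from that, with 0.02 to 0.31 for number 4 and 0.64 to 0.85 for number 1. The simulation therefore does not show how the fit behaves with unequal correlations.

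The members and gene lists were chosen with earlier results of these data known. Members that passed in a comparison are given in every array. The others are given by counts and ranges, except Acaca, Nsdhl and Insig1, whose arrays are given after their values were seen. From each further list up to 3 genes in each direction are named. Promoters were to be printed for up to 4 members called in the same direction in both TGF-β comparisons that hold the sterol element. None did, and those shown were chosen after the values were seen. Alternatives covered the block, probeset choice, level filter, scaling, samples fitted, prior variance and leaving out arrays.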

Additional observations from a re-analysis of the deposited data

Results flagged for a closer look

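In the 4 untreated WT arrays, 3 of the 31 genes had a single array far from the rest by Dixon's test, each time array 1. Chance alone marks about 1 in 20 such sets, but the share over all genes was not counted. Over all genes, array 1 also stood apart, with an SD of 0.41 to 0.42 for its difference from the other untreated WT arrays. Among those it was 0.15 to 0.17. The 3 genes are thus not shown to be particular to this set. Insig2 stood at 7.45 in array 1, while the other arrays lay between 8.70 and 8.72. Acss2 stood at 5.76 in array 1, against 6.60 to 6.64 in the others. Acaca was instead higher in array 1, at 8.54 against 8.44 to 8.46. What sets array 1 apart was not tested.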

How the results depend on the processing

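Over 31 genes and every alternative run, no called gene changed sign. In the settings that kept both untreated p38α∆ arrays, no gene of the set passed between genotypes or in the difference of responses. None was called higher with TGF-β in p38α∆ MSCs in those settings. The 7 falls in p38α∆ MSCs became 1 with no replicate block and 0 when only the arrays of the 2 groups were fitted, where a correlation could not be estimated and the 5 arrays were treated as unrelated. The count ran from 5 to 9 when any single array other than p38α∆ array 1 or 3 was left out. Without either of those, or without the 4 arrays numbered 1, 1 untreated p38α∆ array was left. Calls of those fits are not counted here. The median over the 31 genes was -0.10 without the arrays numbered 1 and -0.22 without p38α∆ array 1. In the other settings Scd1 was lost only in the fit of the 2 groups. In WT MSCs the falls were 1 with no replicate block, 4 with an intensity trend in the prior variance (Fads1 and Elovl5 added), 1 without the arrays numbered 1 and 1 to 2 when single arrays were left out. The only rise called in WT MSCs, that of Hsd17b7, was lost with no replicate block and with all probesets tested. Without single arrays the number of genes called higher ran from 0 to 4. The 4 came without WT array 4b, where Sqle, Msmo1 and Insig1 were added. The cause was not tested.

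The array numbers were used as a block although they do not show pairing throughout: deviations from the group means correlated at 0.64 to 0.85 between arrays numbered 1, at 0.68 to 0.78 for number 3 and at 0.02 to 0.31 for number 4. With the replicate block as a fixed term, 6 of the 7 falls in p38α∆ MSCs remained, Fads1 being lost, and Insig2 and Acss2 were added. Over all genes, no replicate block gave 305 lower and 319 higher in p38α∆ MSCs, against 850 and 586 with it, and 316 lower and 286 higher in WT MSCs, against 917 and 687. Centring each array on its median gave 657 lower and 671 higher in p38α∆ MSCs. Small differences cannot be resolved with 2 untreated p38α∆ arrays, and probesets near background, such as that of Hmgcs1, limit what could be seen.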
